A study of Caenorhabditis elegans with 8 samples.

Results

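The C-type lectin domain genes of Caenorhabditis elegans form one of the largest gene families of the worm. They were taken here as every RefSeq (WBcel235) protein-coding gene whose symbol begins with clec-, which gave 239 of 19983 protein-coding genes. A family member was scored when an interval of the deposited region list shared at least 1 base with its annotated span. By that rule 10 of the 239 genes carried a region, in 12 regions altogether.

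The study used RNA immunoprecipitation and sequencing (RIP-seq), in which RNA bound to a tagged protein is recovered from a lysate and sequenced. The tagged strain, WD656, carried F22D6.2(on49[MSTR-1::3xFLAG]) I, that is, MSTR-1 with a FLAG epitope encoded at its own locus on chromosome I, and N2 worms without FLAG served as the wild-type background. The 4 groups were RIP and input of the MSTR-1::FLAG strain and RIP and input of N2, each with 2 biological replicates, from young adults kept at 25 °C. All samples came from whole worm lysates crosslinked for 30 min in 2% formaldehyde, so the lysates held every tissue of the animal. In which tissues the tagged protein is present is not known here. The region list is specific to the tagged strain, every region name carries its second RIP replicate, and there is one value of each kind per region. Replicate errors can therefore not be given, total reads per library are unknown here, and no test between strains could be made.

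C-type lectin-like domains are folds held together by disulfide bonds, and in animals many of them bind sugars, often with calcium. In C. elegans most family members encode predicted secreted proteins or membrane proteins, many are transcribed in the intestine, and groups of them change expression when worms meet pathogenic bacteria. The p38 MAPK cascade of the intestine is one of the pathways that control such genes. The family is large and arranged partly in tandem, so that neighbouring members can resemble each other in sequence.

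The family was represented at about the rate of the whole proteome. A region lay in 10 of 239 clec genes (4.18%, exact 95% interval 2.02 to 7.56), beside 4.77% of all protein-coding genes (954 of 19983). The interval of the family holds the overall share, so its count is not a result about the lectins. The genes with a region were clec-150, clec-52, clec-1, clec-65, clec-41, clec-84, clec-50, clec-51, clec-85 and clec-63, in the order of their highest fold. Of the 25 clec loci annotated as pseudogenes, 0 carried a region. The share over all pseudogenes was not computed, so this count is not a result about them. In bulk lysate, fewer cells of a type and less RNA per cell cannot be told apart, and the share of all genes includes genes that young adults may not transcribe.

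In the authors' table, the fold is the treatment signal over the control signal at the summit, the base with the highest signal of a region. The 12 regions of clec genes had folds from 1.34 to 3.80 with a median of 2.36, and the 1195 other regions had a median of 2.10. Of the 12 regions, 8 reached a fold of 2 (66.7%), beside 58.3% of the other regions. The authors' −log10 q-value, the negative log of a p-value adjusted for the number of positions tested, had a median of 9.88 over the 12 regions and 5.41 over the whole list. From the fold and the p-value, the number of treatment reads over the summit (the pileup) and the control level could be recovered. Reads that a region is said to hold are this pileup at its summit, not a count over its width. The recovered control levels are not whole numbers, so they need not be counts of reads. The median pileup was 88 reads in the 12 regions, with a median control level of 37.98, while the other regions had medians of 55 reads and 22.98. The pileups of clec-51, clec-84 and clec-52 lay below the median of the other regions, and so did the control levels of these 3 genes and of clec-150.

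**Figure D1:**
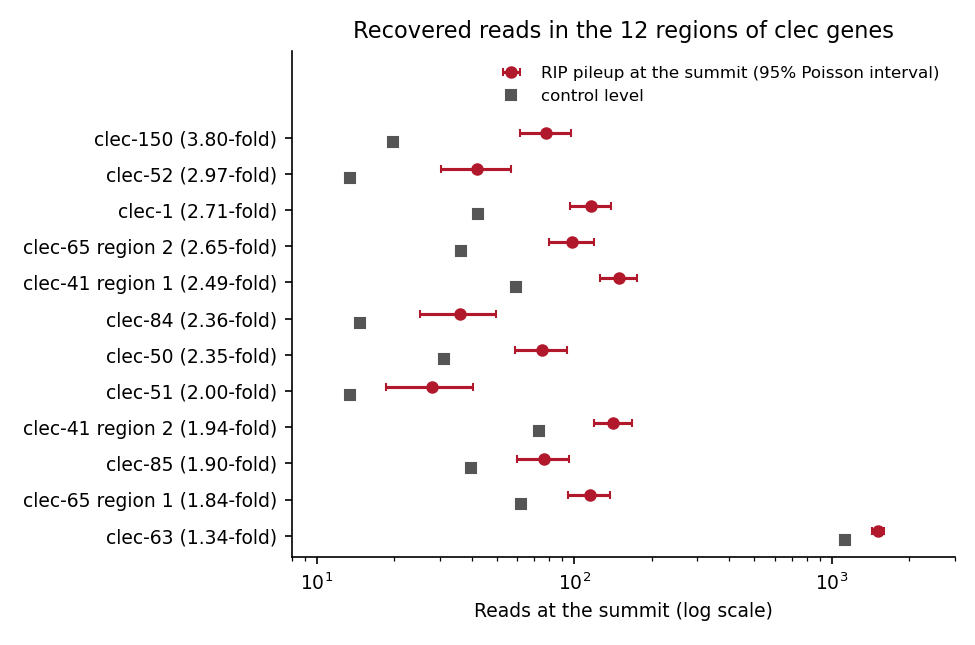
Recovered reads at the summit of the 12 regions in clec genes, ordered by fold from top to bottom. Circles are the treatment pileup with its exact 95% Poisson interval, squares the control level, and the x axis is logarithmic. In all 12 regions the interval of the pileup lies above the control level. Both were solved from the authors' fold and p-value of regions already listed as enriched, so this adds no separate evidence. clec-63 stands far to the right of the others with 1510 reads over 1129.

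The highest fold belonged to clec-150 (R06B10.3), on chromosome III at 1002707 to 1006298. Its single region ran from 1002804 to 1006123, over 92.4% of the gene span, and its summit at 1004047 had a pileup of 78 reads (exact 95% Poisson interval 61.7 to 97.3, as for the pileups below) over a control level of 19.8. The fold of 3.80 ranked 27th of 1207, and the −log10 q was 20.997. Among the 262 other regions with a control level within a factor of 1.25 of this one, 10 had a higher fold and 252 a lower one. A 63 bp non-coding RNA gene, R06B10.8, lies inside the region, but the summit does not fall in it.

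A pair of neighbours on chromosome IV, clec-51 and clec-52, carried the regions with the lowest control level of the 12. clec-52 (B0218.8, 8167164 to 8168760) is an intestinal gene known for its induction by Staphylococcus aureus. Its region at 8167215 to 8168689 covered 92.4% of the gene and held 42 reads (30.3 to 56.8) over 13.5, a 2.97-fold enrichment at a −log10 q of 7.98. The level of 13.5 is the lowest control level in the list and was shared by 305 regions. Whether this floor is the control coverage at each of these summits is not stated. clec-51 (B0218.6, 8161953 to 8163800) ends 3363 bp before clec-52. Its region at 8161781 to 8163239 had 28 reads (18.6 to 40.5) over the same control floor, which gave a fold of 2.00. Its −log10 q of 2.07 was the weakest of the 12. The smallest pileup listed at that floor was 26 reads, so clec-51 lay just inside the limit of what the authors' threshold passed. The region extends into faah-1, which encodes a fatty acid amide hydrolase, by 230 bases, 58 of which the spans of both genes share. The summit, at 8162982, lies in clec-51 alone.

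Both lectins lie in a stretch of chromosome IV that is dense in weak regions, which was singled out after the values were seen. Within 50 kb of their summits the list holds 14 regions, theirs included, from 8113528 to 8205067, of which 12 are at the control floor. Pileups in the stretch ran from 26 to 44 reads and folds from 1.86 to 2.97, the highest being that of clec-52. Of the 24 protein-coding genes in it, 11 carried a region (45.8%). The stretch also holds the regions of the p38 kinase genes pmk-1 and pmk-3. Around clec-51, 11 other regions at the control floor lay within 50 kb of the summit, and around clec-52 10 did. The median over all 1207 regions was 0 and the maximum 13, and by this count clec-51 ranked 7th and clec-52 19th. No clec region outside the stretch had more than 1. Such density is not particular to this stretch. On chromosome III, regions at the control floor also lie close together, as between 3802479 and 3862822. Without the stretch, 8 clec genes carried a region (3.35%), beside 4.72% of all protein-coding genes. Why weak regions are dense there was not tested.

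More than 1 region per gene was rare. clec-65 and clec-41 had 2 regions each, which is 2 of 239 clec genes (0.837%), beside 1.05% of all protein-coding genes with 2 or more. In clec-65 (F35C5.8, chromosome II, 12901325 to 12903336), which is transcribed in the intestine, the regions differed in strength. The one at 12903005 to 12903242 held 98 reads (79.6 to 119.4) over 36.4, a fold of 2.65. The one at 12901718 to 12902652 held 115 reads (94.9 to 138) over 61.9, a fold of 1.84. A gap of 352 bp separates them. With the control level held fixed, the pileup intervals correspond to folds of 2.15 to 3.22 and 1.52 to 2.21, and the difference between the regions was not tested.

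clec-41 (B0365.6, chromosome V, 13134903 to 13138101), a gene linked to resistance against Bacillus thuringiensis, showed a similar pair. Its region at 13136570 to 13136891 held 149 reads (126 to 175) over 59.3, a fold of 2.49 with a −log10 q of 20.3. The region at 13137277 to 13137954 had a pileup interval of 119.6 to 167.4 reads over 72.8, and its fold was 1.94 with a −log10 q of 10.7. The pileup intervals overlap, and the control level was higher under the second. The regions lie 385 bp apart and together cover 31.3% of the span, leaving the part of the gene with the lower coordinates without a region.

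clec-1 (F25B4.9, chromosome V, 5700154 to 5701080) was the shortest gene of the 10, with a span of 927 bp. Its region at 5700337 to 5700898 held 116 reads (95.9 to 139) over 42.1, and the fold was 2.71 (−log10 q 18.6). Of the 128 other regions at a similar control level, 10 had a higher fold and 118 a lower one. No further clec gene lies within 10 kb of it, which is also true of clec-150.

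A further group on chromosome IV held clec-84 and clec-85. clec-85 (Y54G2A.6, 2850886 to 2855456) is an intestinal gene whose transcription depends on the p38 kinase PMK-1. Its region at 2854555 to 2855299 covered 16.3% of the gene, the smallest part among the 10, and held 76 reads (59.9 to 95.1) over 39.6, a fold of 1.90. In clec-84 (Y54G2A.33, 2842474 to 2845603) the region at 2842672 to 2845062 covered 76.4% of the span and held 36 reads (25.2 to 49.8) over 14.7, a fold of 2.36. The whole of a 780 bp protein-coding gene, Y54G2A.15, and a 21 bp piRNA gene lie within the span of clec-84 and under that region. The summit, at 2845052, falls in neither of them.

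clec-50 (W04E12.8, chromosome V, 19752399 to 19755368) had its region at 19754432 to 19755293, close to one end of the gene, with the summit at 96.1% of the span counted from its lower coordinate. The summit held 75 reads (59.0 to 94.0) over 31.3, 2.35-fold above control (−log10 q 9.07). The strand of the genes was not used here, so 5′ and 3′ ends are not named for any of the 12 regions.

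The lowest fold came from the best covered member. clec-63 (F35C5.6, chromosome II, 12895638 to 12897446), a gene with strong intestinal expression, had 1510 reads (1435 to 1588) over a control level of 1129, the 15th highest control level of 1207. Its fold of 1.34 ranked 1160th, while its −log10 q of 24.8 was the largest of the 12. Of the 11 other regions at a similar control level, 8 had a higher fold and 3 a lower one. With the control level fixed, the pileup interval corresponds to a fold of 1.27 to 1.41, below the ranges of every other clec region except that of clec-51 (1.35 to 2.86). At the other end of the order, the range of clec-150 was 3.01 to 4.73. That of clec-52 was 2.16 to 3.99, that of clec-1 2.25 to 3.25 and that of clec-84 1.67 to 3.24, and the differences between these genes were not tested.

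**Figure D2:**
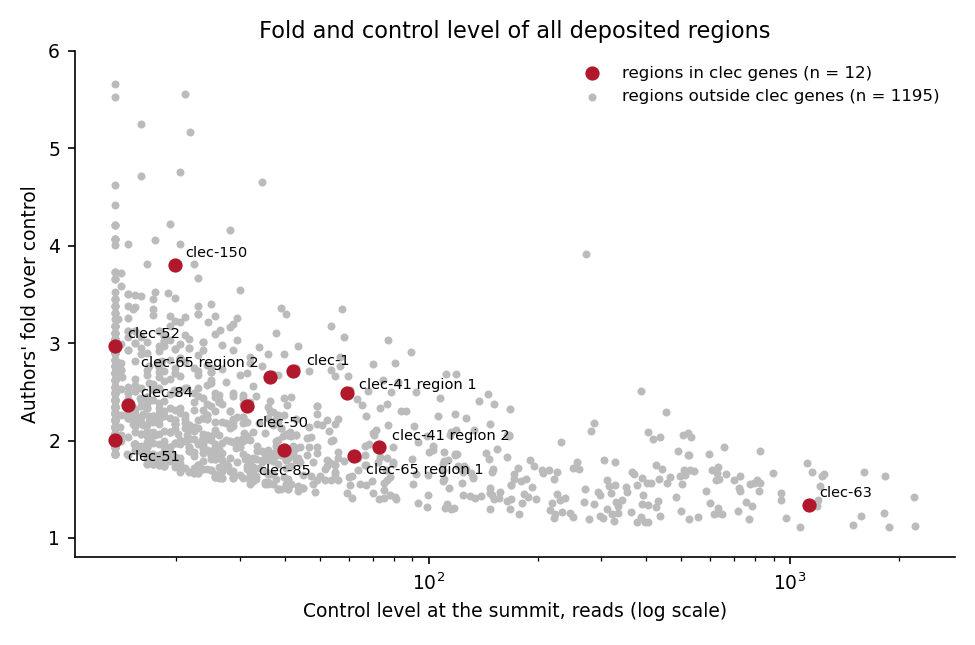
Authors' fold over control against the control level at the summit (logarithmic axis) for all 1207 regions, with the 12 regions of clec genes as large points and the 1195 others in grey. Folds fall as the control level rises across the whole list. Of the 12, clec-63, at a control level of 1129, has the lowest fold and clec-150, at 19.8, the highest.

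Because low folds are listed only where coverage is high, the regions were also set beside those at a similar control level. In 8 of the 12, fewer regions at that level had a higher fold than had a lower one. In clec-51 and clec-63 more had a higher fold, and clec-84 and the weaker region of clec-65 were level. The same count was not made over the whole list, so these numbers are not a result about the lectins. At the control floor the lowest listed fold was 1.86, so a lectin transcript with few reads and a smaller fold could not have entered the list. Counting regions with a fold of at least 2, 8 clec genes carried one, beside 2.98% of all protein-coding genes. Among the upper 603 regions by fold, 7 clec genes were represented, beside 2.62% of all. At the control floor there were 2, clec-51 and clec-52, beside 1.33% of all. An unlabelled 11th column holds 0, 1 or 2 per region. It was above 0 for 3 clec genes, clec-63, clec-65 and clec-41, beside 1.39% of all, and what it means is not stated. As shares of 239, these 4 counts are 3.35%, 2.93%, 0.837% and 1.26%.

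Many clec genes lie next to each other. With members joined where the gap between spans was at most 10 kb, 155 of the 239 genes fell into 47 groups of at least 2, the largest of 13 genes, and 84 stood alone. Of the grouped genes 8 carried a region (5.16%), and of the genes standing alone 2 did (2.38%), clec-150 and clec-1. The share of all protein-coding genes was 4.77%, and the difference between grouped and lone genes was not tested. The 8 lay in 5 of the 47 groups, and 3 of these groups held a pair of genes with a region. The pair of clec-51 and clec-52 lies in the dense stretch, where 11 of 24 protein-coding genes carried a region.

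On chromosome II, clec-62 to clec-66 follow one another. In this row clec-63 and clec-65 carried regions, while clec-62, clec-64 and clec-66 had none. clec-64 lies between them, 795 bp from clec-63 and 885 bp from clec-65. In the group of 5 on chromosome IV, clec-84 and clec-85 carried a region, and clec-80, clec-82 and clec-83 did not, although clec-83 ends 1788 bp before clec-84. On chromosome V, clec-225 ends 16 bp before clec-41 and clec-49 ends 1172 bp before clec-50, and neither neighbour had a region. The treatment of reads shared by similar genes is not stated, so the assignment between neighbouring lectins is uncertain to that extent.

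**Figure D3:**
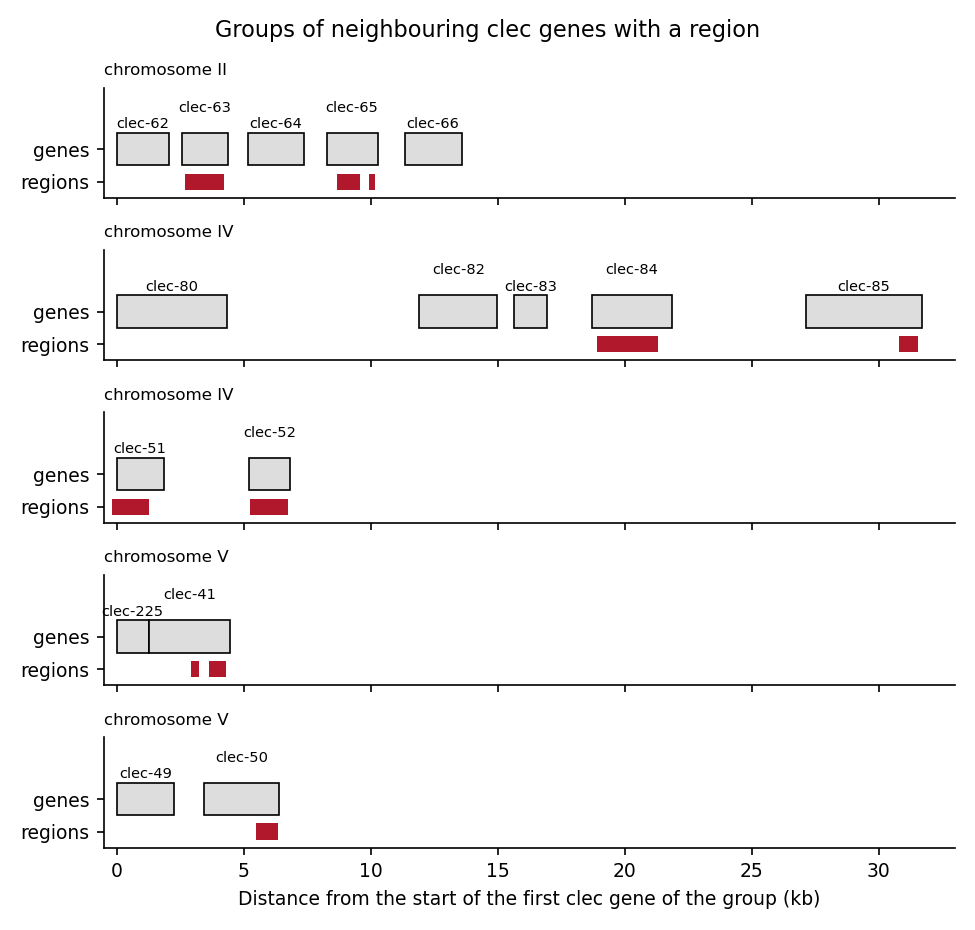
The 5 groups of neighbouring clec genes that hold a region, drawn to scale with the distance in kb from the start of the first gene of each group. Grey boxes are gene spans and red boxes the deposited regions; regions sit under clec-63, clec-65, clec-84, clec-85, clec-51, clec-52, clec-41 and clec-50, while their 8 clec neighbours have none.

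The numbers in the region names tell more about the lectins outside the list. Numbers rise with position on every chromosome and run to 1464, so 257 numbers (17.6%) are unlisted, and each unlisted number has to lie between the listed regions on either side of it if the same order holds for all. Of the 229 clec genes without a region, 191 (83.4%) lie between regions with consecutive numbers, where no numbered region was left out. The same holds for 74.2% of all 19017 nuclear protein-coding genes without a region. For clec-62, clec-64, clec-80, clec-82, clec-83 and clec-225 no number is missing, whereas clec-66 has 1 and clec-49 has 2 unlisted numbers between its flanking regions. These last 2 belong to the 38 clec genes without a region that have 1 to 4 such numbers nearby, and whether any of those lay in the gene is not known here.

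Several members best known from work on infection were outside the list. These 7 genes were chosen after the values were seen. Only 4.77% of all protein-coding genes carried a region, so their absence is not a result about them. Members linked above to infection (clec-52 and clec-41) or to p38 (clec-85) did carry a region. clec-60, clec-70 and clec-71, which respond to Staphylococcus aureus, clec-67, a p38-dependent gene, clec-4, clec-39 and clec-42 carried no region, and none of the 7 had an unlisted number between its flanking regions. clec-67, clec-70 and clec-71 belong to a group of 11 neighbouring lectins on chromosome IV. The spans of the 7 genes, 1832 to 3600 bp, are within those of the genes with a region, which ran from 927 to 4571 bp.

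By chromosome the family is spread unevenly, and the genes with a region followed it loosely. Chromosome V holds 85 clec genes (35.6% of the family, beside 25.0% of all protein-coding genes), of which 3 carried a region (3.53%, beside 3.48% of all genes there). On IV 4 of 53 did (7.55%, beside 5.24%), on II 2 of 48 (4.17%, beside 3.83%) and on III 1 of 14 (7.14%, beside 6.85%). None of the 36 clec genes on I carried one, an exact 95% interval of up to 9.74% that includes the 5.53% of all genes on I, and none of the 3 on X. If each clec gene had the share of its own chromosome, 10.7 of the 239 would carry a region (4.47%).

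**Figure D4:**
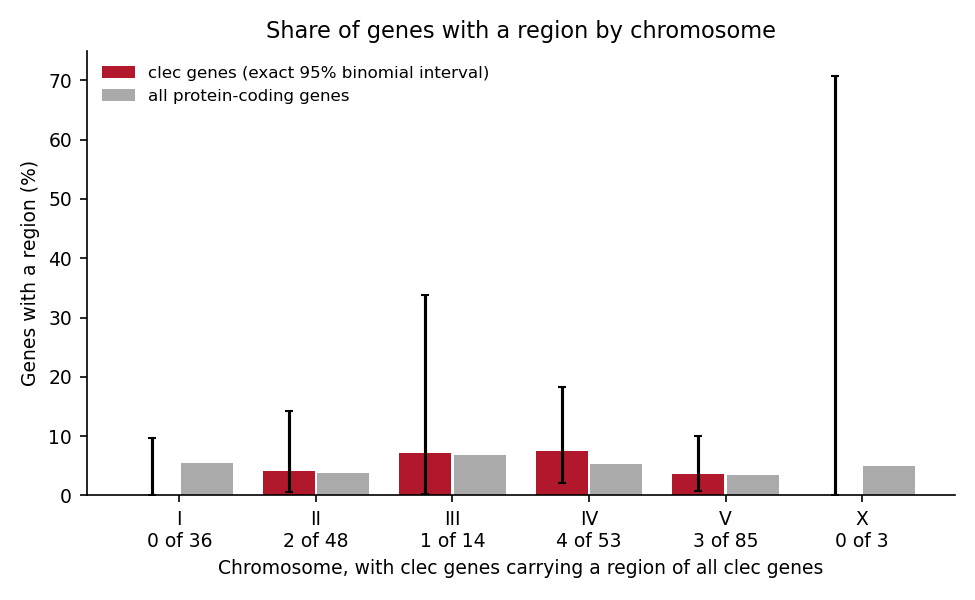
Share of genes with a region on each chromosome, in clec genes (red, with the exact 95% binomial interval) and in all protein-coding genes (grey). The 2 shares lie close to each other on II, III and V, every interval of the clec genes holds the share of all genes on that chromosome, and no clec gene on I or X carries a region.

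The clec genes with a region had the longer median span. It was 2491 bp in these 10 genes (range 927 to 4571), against 1758 bp (range 391 to 25134) in the 229 without a region. The ranges overlap, and the difference was not tested. In all protein-coding genes the medians were 2361.5 bp with a region and 1992 bp without. Of the 60 longest clec genes (spans over 2439.5 bp) 5 carried a region (8.33%), beside 5.75% of all genes that long. In the third quartile of span 3 of 59 did (5.08%, beside 3.80%). In each of the lower quartiles it was 1 of 60 (1.67%, beside 3.53% of all genes in the second quartile of clec span and 4.64% in the first). The intervals of these shares are wide, 2.76 to 18.4% in the longest quartile and 0.0422 to 8.94% in each of the lower ones. The longest member, clec-78 with 25134 bp, had no region. In 7 of the 10 genes the regions covered more than 50% of the span, introns included, and the range was 16.3 to 92.4%. Of the 10 genes, 8 had 1 annotated transcript and clec-51 and clec-85 had 2.

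Other genes of intestinal and epidermal defence were listed beside the lectins. Of 160 genes in 9 lists of immune signalling, antimicrobial effectors and galectins, 23 carried a region (14.4%, exact interval 9.34 to 20.8), beside 4.77% of all protein-coding genes. No test was made between these lists and the clec genes, and the lists were drawn up with earlier results of these data known. In signalling, 3 of 18 genes of the p38 MAPK immune pathway carried a region (16.7%, interval 3.58 to 41.4). They were tir-1, the TIR domain adaptor at its top, with a fold of 2.21, and the p38 kinases pmk-3 (1.93) and pmk-1 (1.86), each with a highest region at the control floor from 26 to 31 reads. The region of pmk-1 had the lowest fold and the smallest pileup that occur there, and both kinase genes lie in the same stretch of chromosome IV as clec-51 and clec-52.

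Among the effectors, lysozymes, which cleave bacterial cell walls, carried regions in 5 of 16 genes (interval 11.02 to 58.7%, beside 4.77% of all protein-coding genes). lys-4 (2.33), lys-2 (2.22), lys-7 (1.70) and lys-1 (1.60) were highest. Saposin-like genes, some of which encode pore-forming peptides, had 4 of 30 (interval 3.76 to 30.7%, which includes 4.77%), namely spp-8 (4.07), spp-10 (2.61), spp-3 (2.31) and spp-14 (1.80). The list of CUB-like and related infection response genes had 5 of 18 (9.69 to 53.5%), led by irg-5 (2.62), dod-19 (2.37), irg-8 (2.29) and dod-21 (1.87). Caenacins and related neuropeptide-like antimicrobial peptides of the epidermis had 2 of 19 (1.301 to 33.1%, which includes 4.77%), nlp-27 (2.73) and nlp-33 (2.05). Of 36 fungus-induced peptide genes, 6 antibacterial factor-related genes and 5 thaumatin-like genes, 0 carried a region. Their intervals reach up to 9.74%, 45.9% and 52.2% in that order, and all include 4.77%.

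The galectins, a further lectin family of the worm, bind beta-galactosides through an unrelated fold. They carried regions in 4 of 12 genes (33.3%, beside 4.77% of all protein-coding genes). The folds were 2.83 in lec-4, 2.22 in lec-2, 1.74 in lec-10 and 1.30 in lec-6. Their interval of 9.92 to 65.1% lies above the 2.02 to 7.56% of the clec genes, and no test of this difference was made. The list holds only 12 genes and was drawn up with earlier results of these data known. The contrast is therefore not a result about the 2 lectin families.

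**Figure D5:**
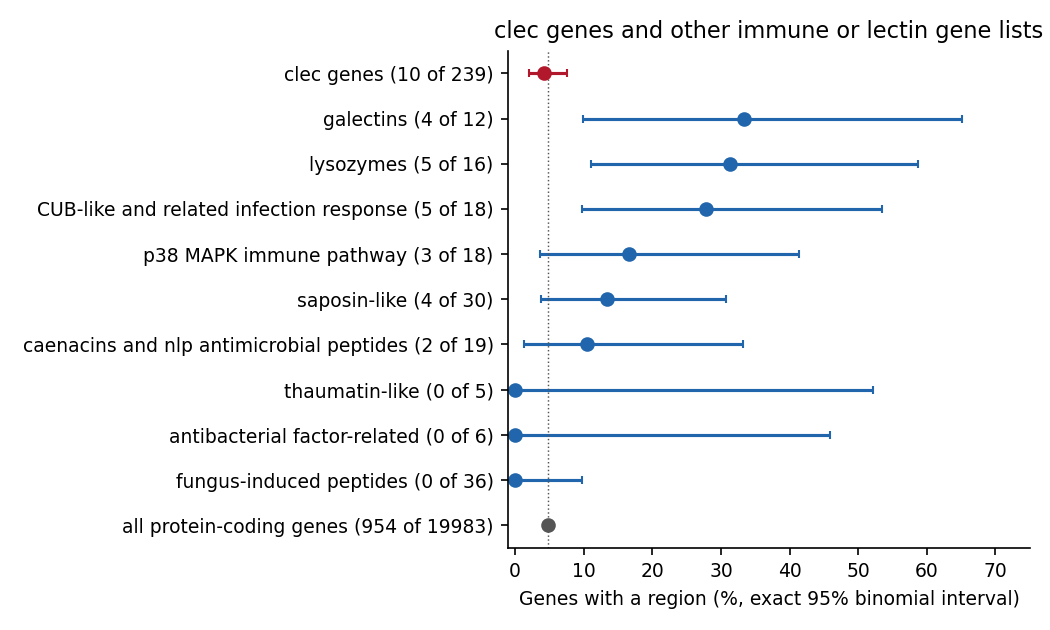
Share of genes with a region in the clec genes (top), in 9 other lists of immune or lectin genes ordered by share, and in all protein-coding genes (bottom, dotted line), each with the exact 95% binomial interval. The clec genes at 4.18% lie beside the line at 4.77%, and galectins, lysozymes and CUB-like genes have the highest shares.

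The tissue of origin could not be read from the list. Of 16 intestine markers 5 carried a region, vit-3, lys-1, vit-5, cpr-1 and vit-4 (interval 11.02 to 58.7%, beside 4.77% of all protein-coding genes). Their regions had a median fold of 1.51 and a median control level of 363. Of the 47 markers of 8 other tissues 3 did (6.38%). They were dpy-13 (1 of 9 epidermis markers), unc-15 (1 of 7 body wall muscle markers) and snb-1 (1 of 7 neuron markers). None of the 8 germline, 5 sperm, 4 gonadal sheath and spermatheca, 4 pharynx and 3 coelomocyte markers carried a region. Their intervals reach up to 36.9%, 52.2%, 60.2%, 60.2% and 70.8% in that order, and all include 4.77%. For clec-63, clec-65, clec-52 and clec-85 the intestine is given above as background, and no tissue is given for the other 6 genes.

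Among families with a shared symbol and at least 100 protein-coding genes, 9 in all, shares varied widely around the 4.77% of all protein-coding genes. The clec genes had 10 of 239 (4.18%). The cuticle collagen genes col had 73 of 156 genes with a region (46.8%), the nuclear hormone receptor genes nhr had 4 of 269 (1.49%), and the F-box families fbxa and fbxb and the chemoreceptor families srh, srw, srx and str had 0.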

How the data were processed

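The data were 1 deposited table of 1207 regions without a header. STAR and deepTools are named in the submitters' processing notes. For the peak caller, its control library and the genome build, nothing is stated. The first 10 columns follow the narrow peak layout. From the authors' deposited columns come a score per region, a fold (a ratio of treatment over control), a −log10 p-value and a −log10 q-value. Rounding 10 times the −log10 q-value down gave the deposited score in all 1207 regions. Region starts were read as counted from 0 and are printed 1-based. Genes were taken from RefSeq WBcel235, with spans but no strand or exons, and were matched by 1 shared base.

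Pileup and control were solved from fold = (pileup + 1) / (control + 1) and a Poisson p-value. Pileups came within 0.02 of a whole number in 1166 regions (96.6%), and in 1061 of 1061 with pileups under 300. The solving and the overlaps were tested on simulated data. That the caller used these formulas was not tested. Binomial and Poisson intervals are exact, at 95%, and cover counting error only. Fold ranges keep the control level fixed.

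The members and lists were chosen with earlier results of these data known. Every clec gene with a region is named. A clec gene without one is named where it is the next clec gene within 10 kb or where the text says so, and up to 4 genes by fold are named per other list. Protein sequences were not used here, so the planned protein features and the naming of the closest member by protein identity were not run. No test between libraries was possible, and the planned interaction model was not run. The tools were scipy 1.17.1, numpy 2.4.6, pandas 2.3.3 and matplotlib 3.10.9 under Python 3.11.15.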

Additional observations from a re-analysis of the deposited data

How the results depend on the processing

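The count of 10 clec genes stayed between 7 and 10 with regions assigned by midpoint, by most of their bases, by the whole region, by the gene with most bases or without regions over several genes, with starts read as 1-based or without the dense stretch around clec-51 and clec-52 (both chosen after seeing the data), with −log10 q of at least 2, with folds of at least 2, and among the upper 603 regions by fold. It became 3 with an unlabelled value above 0, 2 at the control floor and 2 with at least 2 regions per gene, as smaller sets of regions or genes give by construction. Without regions over several genes clec-51 and clec-84 dropped out, leaving 8 (3.35%, beside 4.24% of all genes). Set against genes with spans between the clec quartiles (1279.5 to 2439.5 bp), 4 clec genes of that length carried a region (3.36%), beside 3.66% of 6420 genes. No paired analysis was possible because the table holds no value per library, and for that reason no replicate was left out. Coverage limits the list, since the smallest pileup is 26 reads.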
